A study of Bos taurus with 19 samples.

Results

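The genes GHR, IGF1 and IGF2, which code for the growth hormone receptor and the 2 insulin-like growth factors, were followed in fat from beneath the skin of Holstein Friesian bull calves reared on a high or a low plane of nutrition. They are 3 of the 25670 genes counted, and were taken by Ensembl identifier, with ENSBTAG00000001335 for GHR, ENSBTAG00000011082 for IGF1 and ENSBTAG00000013066 for IGF2. The count files list identifiers without symbols, and the RefSeq gene table used here (assembly ARS-UCD2.0) holds 0 Ensembl identifiers. The 3 symbols are therefore those given with the choice of the genes and were not checked against an annotation. For the same reason no other gene of the growth hormone pathway and no marker gene of adipocytes or of other cells is named here, and the labelled tissue could not be checked against its markers.

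The 19 animals were 10 male calves of the high treatment, with a labelled growth rate of 1.08 kg/day, and 9 male calves of the low treatment, with a labelled growth rate of 0.5 kg/day. The study assigned 10 calves to each diet, of which 9 of the low treatment are among the samples used here. High calves were offered the larger allowance of milk replacer and concentrate ad libitum, low calves a smaller allowance of milk replacer and a fixed daily maximum of concentrate, and all calves had straw and water. All were euthanized at a mean age of 126 days, and 1 RNAseq library was made from the flank fat of each animal. Calves came from commercial farms and were blocked by sire, weight, farm and age before they were assigned to a diet, but the block of each animal and its sequencing lane were not used here. The comparison asks how the plane of nutrition in early life was associated with transcript levels of the somatotropic axis in fat.

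Growth hormone from the pituitary acts on cells through GHR, a cytokine-type receptor that signals through the kinase JAK2 and the transcription factor STAT5. In liver, and locally in other tissues, this signal raises the transcription of IGF1, a secreted growth factor that acts through the type 1 IGF receptor and supports the growth and differentiation of preadipocytes. In adipocytes growth hormone itself restrains lipid synthesis and favours lipolysis. IGF2 acts largely through the same receptor, is expressed from the paternal allele in most tissues and is best known as a growth factor of fetal life. In underfed cattle, liver GHR and circulating IGF1 are known to fall.

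Counted reads per library spanned 8608800 to 17691547 on the high diet and 7656100 to 12348770 on the low diet, and libraries of the high diet held more reads (exact permutation test of log2 reads, two-sided, over the 92378 splits of the animals into 10 and 9, p = 0.0247). Levels are given as CPM, the reads on a gene scaled to the reads of its library, with library sizes adjusted by TMM, the trimmed mean of M-values, so that the typical gene does not differ between libraries. The TMM factors of high libraries, at 0.829 to 0.987, lay below those of low libraries, at 1.05 to 1.15. CPM is not divided by gene length, so levels are compared between animals and not between genes. Log2 fold changes are low minus high. A multidimensional scaling (MDS) was made without GHR, IGF1 and IGF2. The distance between 2 libraries was taken from the 500 genes that differed most between that pair. On the first MDS dimension all 9 low animals were negative, and 2 of the 10 high animals, D64 and D75, were negative too.

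GHR, the receptor of the axis, fell on the low plane of nutrition. In the high animals the lowest level was 29.2 CPM, the median 148 CPM and the highest 366 CPM. In the low animals the lowest level was 13.3 CPM, the median 32.1 CPM and the highest 105 CPM. All 9 low animals lay below the high median, and 6 of the 10 high animals lay above every low animal. The diets overlapped through 4 high animals, D64 at 29.2 CPM, D75 at 30.3 CPM, D71 at 48.2 CPM and D61 at 68.2 CPM, and through 5 low animals, D67 at 32.1 CPM, D77 at 38.3 CPM, D68 at 56.8 CPM, D70 at 98.7 CPM and D78 at 105 CPM. The other 4 low animals lay below every high animal. High calves averaged 144 ± 107 CPM (SD, n = 10) and low calves 45.2 ± 34.7 CPM (SD, n = 9), a fitted level 3.19-fold higher in the high treatment. The log2 fold change was -1.67 (SE 0.49, 95% interval -2.71 to -0.64) with an adjusted p of 0.0123 in the edgeR quasi-likelihood test, adjusted over the 10064 genes tested.

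By this test GHR passed both an adjusted p below 0.05 and a fold change above 2, as did 7.26% of the genes tested (5.36% in this direction), while 37.2% of genes had an adjusted p below 0.05 at any fold. For the log2 CPM of GHR, the two-sided exact permutation test gave p = 0.0114. The call was lost when the log2 number of reads was added as a covariate (log2 fold change -1.06, SE 0.64, adjusted p = 0.248 in edgeR). Library sizes differed between the diets but overlapped, so diet and library size are partly confounded and this fit separates them only in part. It assumes the same slope on library size in both diets. Within a diet, r of GHR with log2 reads was 0.731 in the high and -0.25 in the low animals. In bulk tissue, fewer cells that express a gene and less RNA of that gene per cell cannot be told apart. The authors report far fewer and far smaller adipocytes in sections of this fat from low calves than from high calves. Adipocytes filled large areas in the high treatment and only small pockets in the low treatment, so the samples were not alike in their cells. How far this bears on the levels of GHR, IGF1 and IGF2 was not tested.

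**Figure D1:**
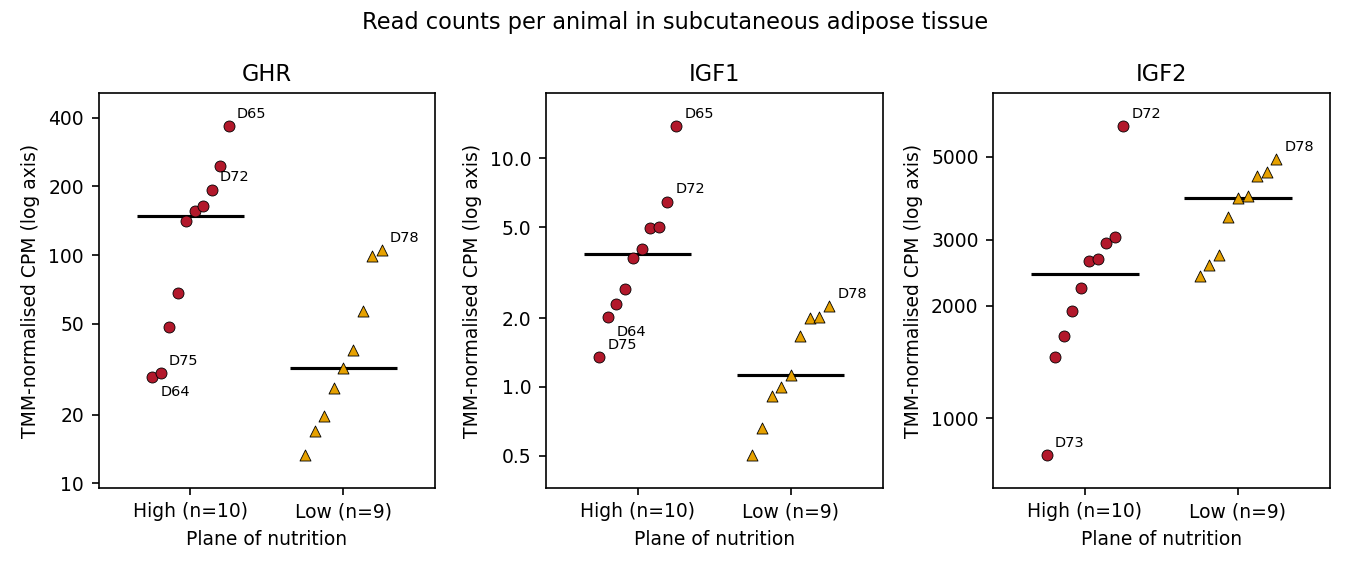
TMM-normalised CPM of GHR, IGF1 and IGF2 (log axes) for each of the 10 high (circles) and 9 low (triangles) animals, ordered from left to right by level within a diet, with the median as a bar. The low animals sit lower for GHR (median 32.1 against 148 CPM) and IGF1 (1.12 against 3.82 CPM), and for IGF2 8 of 9 low animals lie above the high median of 2430 CPM.

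GHR was also one of the more variable genes between animals fed alike. Its level spanned 12.5-fold among the high and 7.89-fold among the low animals, with a coefficient of variation of 74.5% and 76.7%. The biological coefficient of variation fitted by edgeR, which is the relative spread between animals of a diet beyond counting noise, was 0.697 for GHR against a median of 0.228 over the 10064 genes. Of the genes tested, 98.7% had a smaller dispersion than GHR. The reads behind these levels numbered 247 to 5347 per high library and 151 to 1122 per low library, so counting noise was small beside this spread.

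IGF1, the growth factor that growth hormone signalling induces, fell as well, on far fewer reads. The high animals ranged from 1.35 CPM (D75) through a median of 3.82 CPM to 13.8 CPM (D65). The low animals ranged from 0.504 CPM (D79) through a median of 1.12 CPM to 2.25 CPM (D78). All 10 high animals lay above the low median, 8 of them lay above every low animal, and 5 of 9 low animals lay below every high animal. The 2 high animals inside the low range were again D64 at 2.02 CPM and D75 at 1.35 CPM.

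For IGF1, high calves averaged 4.62 ± 3.58 CPM (SD, n = 10) and low calves 1.35 ± 0.648 CPM (SD, n = 9). Only 2 of the 19 libraries reached 5 CPM before TMM scaling, both from high animals, so IGF1 did not pass the filter of 5 CPM in 9 libraries and was tested among the 18679 genes with at least 1 read. There the log2 fold change was -1.79 (SE 0.39, 95% interval -2.59 to -0.99), a level 3.46-fold higher in the high treatment, with an adjusted p of 0.0019 in the edgeR quasi-likelihood test. In that fit 8.27% of genes passed an adjusted p below 0.05 with a fold change above 2 (5.91% in this direction), and 23.6% passed the adjusted p alone. The exact permutation test of log2 CPM gave p = 0.000671. With the log2 number of reads as a covariate the log2 fold change was -1.09 and the adjusted p rose to 0.0837 in edgeR.

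Counting noise limits IGF1 in single animals. High libraries held 11 to 201 reads on IGF1 and low libraries 5 to 27 reads, with medians of 38.5 and 11. The 5 reads of D79 carry an exact 95% Poisson interval of 1.62 to 11.7 reads, which covers counting error only. The order of low animals with overlapping intervals is therefore uncertain. In CPM, the intervals of D79 and D77 end at 1.18 and 1.26, below those of D70, D76 and D78, which start at 1.28, 1.32 and 1.34. The 201 reads of D65, with an interval of 174 to 231, stand clear of the 94 reads of the next animal, D72.

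IGF2 differed from GHR and IGF1 in that it did not fall. The high animals ranged from 796 CPM (D73) through a median of 2430 CPM to 6036 CPM (D72). The low animals ranged from 2399 CPM (D69) through a median of 3878 CPM to 4936 CPM (D78). Of the low animals 8 of 9 lay above the high median, and 9 of 10 high animals lay below the low median, the exception being D72, which was above every low animal.

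For IGF2, high calves averaged 2540 ± 1419 CPM (SD, n = 10) and low calves 3654 ± 926 CPM (SD, n = 9), and the log2 fold change was 0.52 (SE 0.26, 95% interval -0.02 to 1.07), with an adjusted p of 0.12 in the edgeR quasi-likelihood test over 10064 genes. This difference did not pass the threshold, and its interval includes 0. The call depended on 1 animal and on the scaling. D72 was the highest high animal, so leaving it out enlarges the difference by construction. Without D73, the lowest high animal, the log2 fold change was 0.42 with an adjusted p of 0.164 in edgeR. Without D72 the log2 fold change was 0.76 with an adjusted p of 0.0119, and with scaling by total counts it was 0.82 with an adjusted p of 0.00848 (both edgeR), but that scaling also moved the median change over all genes, on the log2 scale, from 0.02 to 0.30, and relative to that median IGF2 stood at 0.53. The exact permutation test of log2 CPM, which weights animals equally on the log scale, gave a difference of 0.66 and an unadjusted p of 0.0295, beside an unadjusted p of 0.0591 in the edgeR test.

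The low animals were closer to each other in IGF2 than the high animals were. The spread among the low animals was 2.06-fold from lowest to highest, against 7.58-fold among the high animals, and the coefficients of variation were 25.3% and 55.9%. The difference in spread was not tested. IGF2 took 0.0714% to 0.497% of all counted reads on the high diet and 0.263% to 0.515% on the low diet, with at least 10021 reads in every animal, so counting noise was negligible for this gene.

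**Figure D2:**
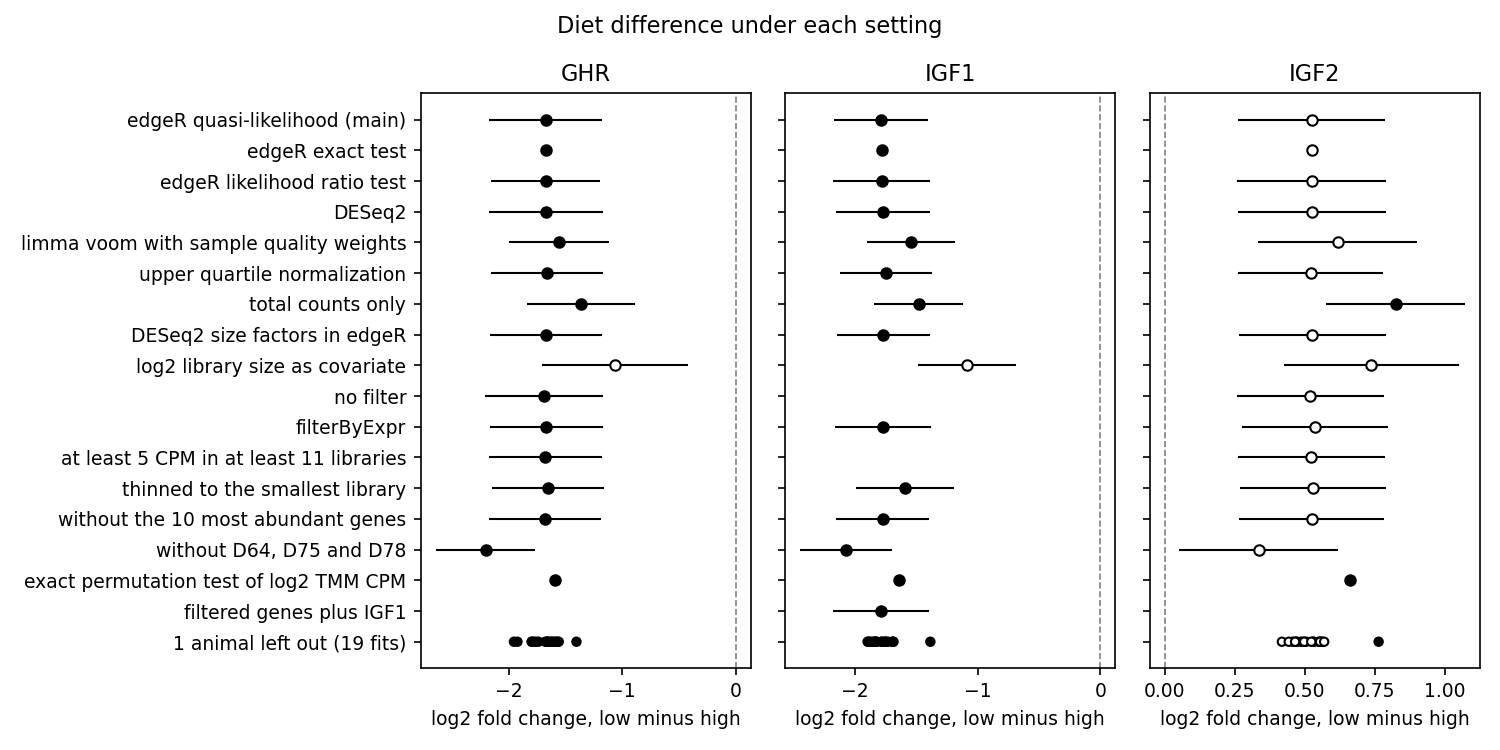
Log2 fold change (low minus high) of GHR, IGF1 and IGF2 under each setting, with the standard error as a bar where the test gives one, and the 19 fits without 1 animal in the last row. Filled points have an adjusted p below 0.05 (an unadjusted p for the exact permutation test). GHR and IGF1 stay below 0 and IGF2 above 0 in every setting drawn, and open points mark where the call was absent.

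Ratios of counts within an animal do not depend on how the libraries are scaled, and they were used to ask whether the 3 genes moved together. No difference was detected in the proportion of IGF1 to GHR. High calves had a mean log2 ratio of IGF1 to GHR of -4.80 ± 0.67 (SD, n = 10), and low calves one of -4.81 ± 1.01 (SD, n = 9). Low minus high came to -0.01 (95% interval -0.83 to 0.82, exact permutation test, two-sided, p = 0.977), so the interval still allows a difference in either direction of somewhat under 2-fold. With count + 5 in place of count + 0.5 the difference changed sign, to 0.24 (exact permutation test, p = 0.538). The added count weighs more on IGF1, with 5 to 201 reads, than on GHR, with 151 to 5347 reads.

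Against IGF2, both of the other genes shifted. The log2 ratio of IGF2 to GHR ran from 2.49 through a median of 4.52 to 5.99 in the high and from 5.49 through a median of 6.50 to 8.07 in the low animals. The difference was 2.25 (95% interval 1.17 to 3.34), which is 4.76-fold more IGF2 reads per GHR read in the low treatment (exact permutation test, p = 0.000498, 0.000747 adjusted over the 3 ratios). Of the high animals 8 of 10 lay below every low animal, and D64 and D75 lay inside the low range.

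The log2 ratio of IGF1 to IGF2 ran from -10.42 through a median of -9.30 to -7.59 in the high and from -13.0 through a median of -11.1 to -10.45 in the low animals. The difference was -2.26 (95% interval -3.04 to -1.50, exact permutation test, p = 2.17e-05, 6.5e-05 adjusted over the 3 ratios). On this ratio no high animal overlapped with a low animal. The nearest were D75 at -10.42 and the low animal D69 at -10.45, a gap far inside the counting error of 11 and 19 IGF1 reads. Among the genes that passed the filter, IGF2 aside, the ratio to IGF2 separated the diets without overlap in 2.83%. Over all genes that passed the filter, the level alone did so in 2.14%. IGF1 did not pass the filter and is not among these genes, and no such share was taken over genes with counts as low as its own.

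**Figure D3:**
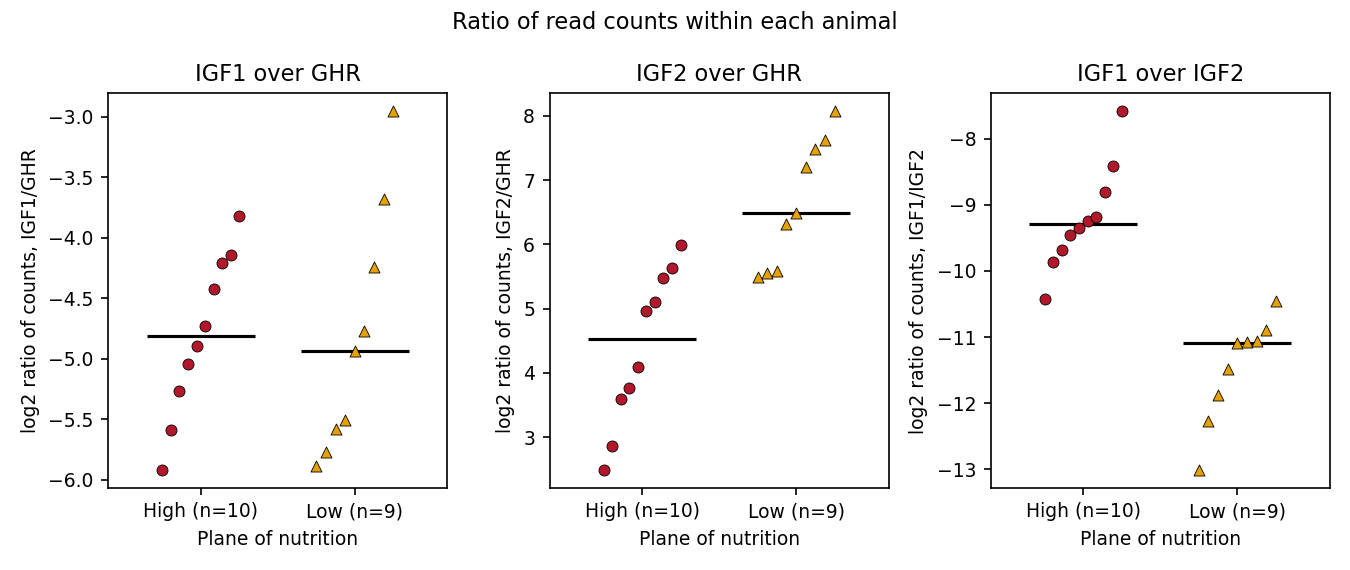
Log2 ratio of read counts within each animal (vertical axes) for IGF1 over GHR, IGF2 over GHR and IGF1 over IGF2, by diet, ordered by value within a diet, with the median as a bar. For IGF1 over GHR the diets overlap broadly (medians -4.81 and -4.94), with 2 low animals above every high animal and 1 high animal below every low animal. They do not overlap for IGF1 over IGF2 (medians -9.30 and -11.1).

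Within a diet, the genes were compared across animals on the log2 CPM scale, with 18 relations in all and p-values adjusted over them. High animals with more GHR also had more IGF1 (Pearson r = 0.861, permutation p = 0.00098, adjusted 0.00882, Spearman rho = 0.939, permutation p = 0.00018, adjusted 0.00162, n = 10). Without D64 and D75, the 2 animals farthest from the median GHR, r was 0.759. Among the low animals the same relation had r = 0.417 (exact permutation p = 0.258, adjusted 0.452, rho = 0.433, p = 0.25, n = 9), and without D78 and D70 r was -0.17, so any relation rested on those animals. Whether the relation differed between the diets was not tested.

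IGF2 was set against GHR and IGF1 in the same way. In the high animals r between GHR and IGF2 was 0.384 (permutation p = 0.282, adjusted 0.452, rho = 0.612, p = 0.0659, n = 10), and in the low animals it was 0.384 (exact permutation p = 0.302, adjusted 0.452, rho = 0.367, p = 0.336, n = 9). Between IGF1 and IGF2 r was 0.586 in the high animals (permutation p = 0.0733, adjusted 0.189, rho = 0.733, p = 0.0201, adjusted 0.0904, n = 10) and 0.0983 in the low animals (exact permutation p = 0.797, adjusted 0.833, rho = 0.2, p = 0.613, n = 9). None of these passed the adjustment. Without the 2 farthest animals r of GHR with IGF2 was 0.27 in the high and -0.21 in the low animals, and r of IGF1 with IGF2 was 0.861 and 0.232.

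**Figure D4:**
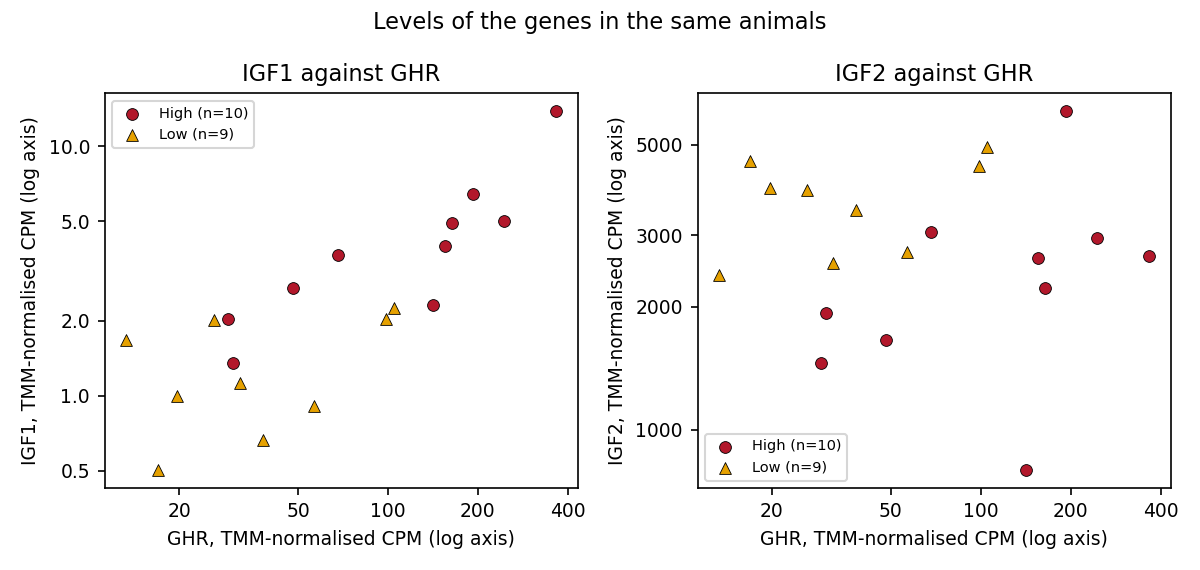
IGF1 (left) and IGF2 (right) against GHR in the same animals, in TMM-normalised CPM on log axes, with circles for the 10 high and triangles for the 9 low animals. IGF1 rises with GHR among the high animals (r = 0.861), while for IGF2 the low animals lie mostly above high animals of the same GHR level.

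The levels were also set against MDS dimension 1, the leading axis of the distances between libraries. The high animals with larger coordinates had more GHR (r = 0.951, permutation p = 5e-05, adjusted 0.0009, rho = 0.964, p = 2e-05, n = 10) and more IGF1 (r = 0.837, permutation p = 0.0019, adjusted 0.0114, rho = 0.915, p = 0.00068, n = 10). Without D75 and D64, which lie at the low end, r was 0.881 for GHR and 0.703 for IGF1. The axis is made from genes that differ most between libraries, and how many other genes follow it as closely was not counted. For IGF2 the relation did not pass the test (r = 0.45, permutation p = 0.195, adjusted 0.391, rho = 0.527, p = 0.123, n = 10). In the low animals GHR had r = 0.75 with dimension 1 (exact permutation p = 0.0209, adjusted 0.0627, rho = 0.65, p = 0.0666, n = 9), which fell to 0.47 without D78 and D69. IGF1 in the low animals had r = 0.317 (exact permutation p = 0.404, adjusted 0.559, rho = 0.333, p = 0.385) and IGF2 r = 0.601 (exact permutation p = 0.0889, adjusted 0.2, rho = 0.717, p = 0.0369), which was 0.244 and 0.204 without D78 and D69.

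D64 and D75 therefore carried the lowest GHR of the high treatment, the lowest IGF1 and the lowest coordinates on dimension 1 together. D78 carried the highest GHR, IGF1 and IGF2 of the low treatment and the coordinate nearest to 0. With these 3 animals left out, the log2 fold change was -2.20 for GHR (adjusted p = 0.000799), -2.07 for IGF1 (adjusted p = 0.000344) and 0.34 for IGF2 (adjusted p = 0.357), all from edgeR. Since D64 and D75 were the lowest high animals and D78 the highest low animal for GHR and IGF1, leaving them out enlarges both differences by construction and is no check of these calls. For IGF2, D78 was the highest low animal and D64 and D75 lay below the high median. Leaving them out therefore reduces the IGF2 difference by construction too. What sets the 3 animals apart was not tested.

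**Figure D5:**
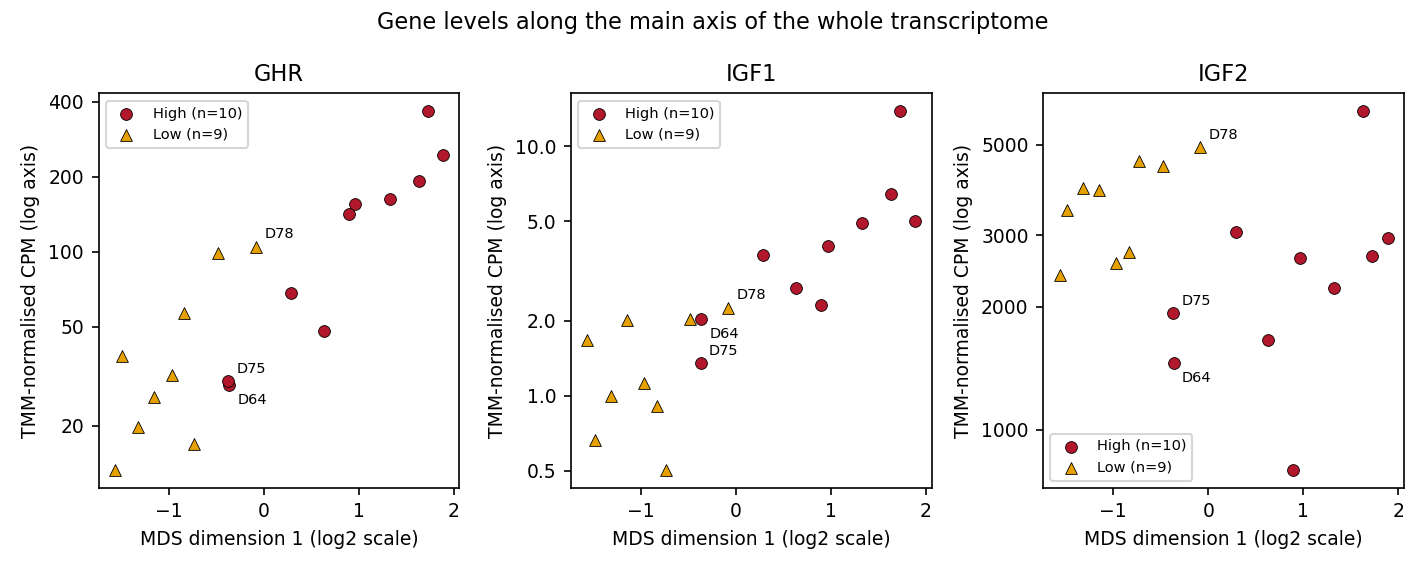
TMM-normalised CPM (log axes) of GHR, IGF1 and IGF2 against MDS dimension 1, computed without these genes, with circles for the 10 high and triangles for the 9 low animals. GHR climbs along the axis within the high animals (r = 0.951), D64 and D75 lie among the low animals for GHR and IGF1, and for IGF2 the relation within the high animals did not pass the test (r = 0.45).

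No relation of a level with library size within a diet passed the adjustment. Among the high animals r with log2 reads was 0.731 for GHR (permutation p = 0.0166, adjusted 0.0599, rho = 0.648, p = 0.048, adjusted 0.125, n = 10) and 0.734 for IGF1 (permutation p = 0.0154, adjusted 0.0599, rho = 0.648, p = 0.0485, adjusted 0.125, n = 10). The corresponding r without D72 and D65, the largest libraries, were 0.619 and 0.437. IGF2 had r = 0.274 there (permutation p = 0.449, adjusted 0.577, rho = 0.139, p = 0.707), and -0.47 without these animals. In the low animals r was -0.25 for GHR (exact permutation p = 0.506, adjusted 0.59, rho = -0.22, p = 0.581; 0.273 without D78 and D76), -0.08 for IGF1 (exact permutation p = 0.833, rho = -0.08, p = 0.843) and -0.24 for IGF2 (exact permutation p = 0.524, rho = -0.42, p = 0.27). With every library thinned to 7656100 reads, the log2 fold changes of GHR, IGF1 and IGF2 were -1.65, -1.59 and 0.53 (adjusted p = 0.0135, 0.00579 and 0.117 in edgeR).

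The likeness of GHR and IGF1 was not particular to this pair. Over all 19 animals, after subtraction of each diet's mean, the deviations of IGF1 correlated with those of GHR at r = 0.697, which ranked 637 of the 10064 genes compared with GHR. The closest gene reached 0.963, and 33 genes were above 0.9. From the side of IGF1, GHR ranked 222, and no gene was above 0.9, the closest being at 0.852. IGF2 had r = 0.374 with GHR and 0.455 with IGF1 on this scale, and its closest gene reached 0.784. These are descriptions over genes of the same 19 libraries, and how far the low counts of IGF1 bear on its correlations was not tested.

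In the RefSeq table, the span of the gene named GHR overlaps 1 lncRNA gene (LOC112443004), that of IGF1 overlaps 1 lncRNA gene (LOC112446717), and that of IGF2 holds 1 microRNA gene (MIR483) and follows INS, the insulin gene. These are whole spans, introns included, and whether exons overlap was not examined. The counting is not stated to use strand, so any reads of such transcripts that fall on exons of GHR or IGF1 cannot be told apart. IGF1 has 10 RefSeq transcripts and IGF2 has 8, and the gene-level counts do not separate them.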

How the data were processed

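RNA from the subcutaneous adipose tissue of 19 calves was sequenced as single-end reads, with 1 library per animal. Alignment by the authors was to the bovine assembly UMD3.1 with STAR. They kept uniquely mapped reads with few mismatches, counted the reads on Ensembl genes with HTSeq and deposited raw counts, without normalization or filter. Treatments were taken from the sample labels.

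A minimum of 5 CPM in 9 or more libraries left 10064 of 25670 genes. Counts were tested in R 4.3.3 with edgeR 4.0.16 (TMM, robust dispersions, quasi-likelihood F test, Benjamini-Hochberg adjustment, diet as the only term), and IGF1, which failed this filter, among the 18679 genes with a read. Levels and ratios (count + 0.5) were compared by two-sided exact permutation tests over 92378 splits, and correlations by 100000 permutations for 10 animals or all 362880 for 9. The p-values rest on the spread between animals. No pair of libraries of a diet agreed within sampling noise (chi-square of at least 25.2 per degree of freedom). Alternatives used DESeq2 1.42.0, limma 3.58.1 and other scalings, filters and sets of animals. The edgeR, limma and DESeq2 tests were tried on simulated counts of filtered genes. Every simulated gene had the same dispersion, which was below those fitted to GHR, IGF1 and IGF2. The permutation tests were not part of that simulation.

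GHR, IGF1 and IGF2 and the tests were chosen with earlier results of these data known. The named genes were to be these 3, lists of pathway and cell marker genes, and the genes most like each of the 3. Since 0 identifiers could be paired with symbols, those lists, marker ratios and sequences are not analysed here.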

Additional observations from a re-analysis of the deposited data

Results flagged for a closer look

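In each diet, the highest and the lowest animal were tested by Dixon's ratio, the gap to the nearest animal over the whole range, in 12 sets of values (3 levels and 3 ratios in 2 diets). About 1 in 20 such sets of normal values exceeds the critical value by chance, and 2 did, both for levels in CPM. For IGF1, the high animal D65 had 13.8 CPM against 6.46 CPM in the next animal (ratio 0.589, critical value 0.466), and it also had the highest GHR of all animals, at 366 CPM. For IGF2, the high animal D72 had 6036 CPM against 3051 CPM in the next animal (ratio 0.57, critical value 0.466). Without D65 the log2 fold change of IGF1 was -1.39 (adjusted p = 0.00365 in edgeR), and without D72 that of IGF2 was 0.76 (adjusted p = 0.0119 in edgeR). Each was the highest high animal for its gene. Leaving it out therefore reduces the IGF1 difference and enlarges the IGF2 difference by construction. On log2 CPM, a scale added after the data were seen, 0 of the 6 sets of levels exceeded the critical value, with ratios of 0.326 for D65 and 0.337 for D72.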

How the results depend on the processing

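The direction of GHR and IGF1 (lower in low) and of IGF2 (higher in low) held in every setting tried, and, among settings with all 19 animals judged by adjusted p, the side of the threshold held in 12 of 13 for GHR, 11 of 12 for IGF1 and 12 of 13 for IGF2. With log2 library size as a covariate the log2 fold changes were -1.06 for GHR and -1.09 for IGF1, and both calls were lost (adjusted p = 0.248 and 0.0837 in edgeR). IGF2 passed the threshold with total counts only (0.82). By unadjusted p, which is a weaker criterion, it was below 0.05 in 6 of the 13 settings and in the exact permutation test added after the data were seen (0.66), but not in the edgeR quasi-likelihood test reported (0.0591). The causes were not tested. Over the 19 fits without 1 animal, the log2 fold change ran from -1.95 to -1.40 for GHR, from -1.90 to -1.39 for IGF1 and from 0.42 to 0.76 for IGF2, and the only call that changed was IGF2 without D72. The log2 ratio of IGF1 to GHR, which was not past the test in any setting, changed sign to 0.24 with count + 5 and to 0.24 without D64, D75 and D78, and ran from -0.24 to 0.12 without 1 animal. The other 2 ratios kept their direction and side in both settings and without any 1 animal. The 18 correlations kept theirs with total-count scaling, the 1 other scaling tried, but without the 2 farthest animals 4 changed sign, all 4 short of the test: in the low animals GHR with IGF1 (to -0.17), GHR with IGF2 (to -0.21) and library size with GHR (to 0.273), and in the high animals library size with IGF2 (to -0.47). No paired or blocked analysis was made, because the replicate numbers are animal numbers and the labels used here do not give the block of each calf. The counts over gene lists and the marker ratios planned beforehand were not run, since identifiers were not paired with symbols. IGF1, at 5 to 201 reads, is the value that depth limits most.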
